A study of Mus musculus with 16 samples.

Results

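The 10 genes described here, Dcn, Lum, Pdgfrb, Bmp5, Acta2, Tagln, Des, Timp1, Lrat and Reln, are genes of hepatic stellate cells other than collagens. They were named from general knowledge of the cell type, with earlier results of these data known, and are 10 of the 55421 gene IDs in the deposited count table. All 10 passed the minimum of 10 counts in total that 23018 genes met. Bulk poly-A RNA-seq had been performed on whole liver of male mice, with 4 libraries for each combination of genotype (control or HIRA KO) and time (before or after regeneration). HIRA is a histone chaperone that supplies H3.3 to chromatin when DNA is not being copied. Every mouse had received an adeno-associated virus (AAV8) into the retro-orbital sinus at 6 months of age and underwent partial liver resection 4 weeks after that.

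In each group, 2 libraries came from a Cre approach and 2 from a CRISPR approach. Control mice were wildtype mice given AAV8 Tbg-Cre or wildtype mice given the Cas9 virus with the guide sgRosa26. HIRA KO mice were HIRAfl/fl mice given AAV8 Tbg-Cre or wildtype mice given the Cas9 virus with the guide sgHIRA. The Tbg promoter is active in hepatocytes, so the design aimed the deletion at hepatocytes and not at the cells that make most of the 10 transcripts. Tissue before regeneration was the left lateral and median lobes removed at surgery, and tissue after regeneration was the remnant taken 5 days later after euthanasia. The lobe, the way of collection and the time therefore cannot be told apart. The libraries carry a running number from 1 to 4 within each group that no label explains, so neither the mouse nor the approach could be tied to a library. Because the labels do not tie libraries to separate mice, the p-values measure only the spread between these libraries.

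Hepatic stellate cells are the pericytes of the liver sinusoid. At rest they store vitamin A as retinyl esters, and after injury they can turn into contractile, matrix-producing myofibroblasts. Several of their genes are not theirs alone: Acta2, Tagln and Des are also made by vascular smooth muscle, and Dcn and Lum by portal fibroblasts. In whole-tissue RNA, fewer cells of a type and less RNA per cell cannot be told apart.

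Total counts ran from 15103059 to 21738619 per library, and levels are given as CPM, counts scaled to library size with TMM factors. Before regeneration Hira itself was at 5.77 ± 0.45 CPM in control and 3.54 ± 0.57 in HIRA KO (SD, n = 4), and at 5.67 ± 0.55 and 3.51 ± 0.71 after it. Libraries 1 and 2 of HIRA KO, at both times, stood apart from the other 12 on the second principal component of 13176 genes, which carried 26.5% of the variance. Counts of fitted changes above 0 and of calls among the 10 genes are given with and without these 4 libraries.

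Dcn, the matrix proteoglycan decorin, was the most abundant of the 10 genes in control liver before regeneration on both scales per length. It stood at 60.1 ± 6.23 FPKM, the deposited values scaled for length and library size, and at 22.6 ± 1.61 CPM per kb of annotated exon. Timp1 was the lowest on both scales, at 0.130 ± 0.15 FPKM and 0.134 ± 0.16 CPM per kb. The order between them depended on the scale. Reln came next after Dcn by FPKM, at 10.0 ± 2.05, but was below 5 of the genes by CPM per kb, at 1.64 ± 0.27, and the ratio of the FPKM to the CPM per kb ran from 0.822 for Pdgfrb to 6.22 for Reln. Tagln also had a high ratio, 4.15. Its locus overlaps that of Pcsk7 on the opposite strand, and how reads there were shared between the genes is not stated. Only Dcn and Timp1 are therefore ranked here, and all comparisons below are made within a gene.

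**Figure D1:**
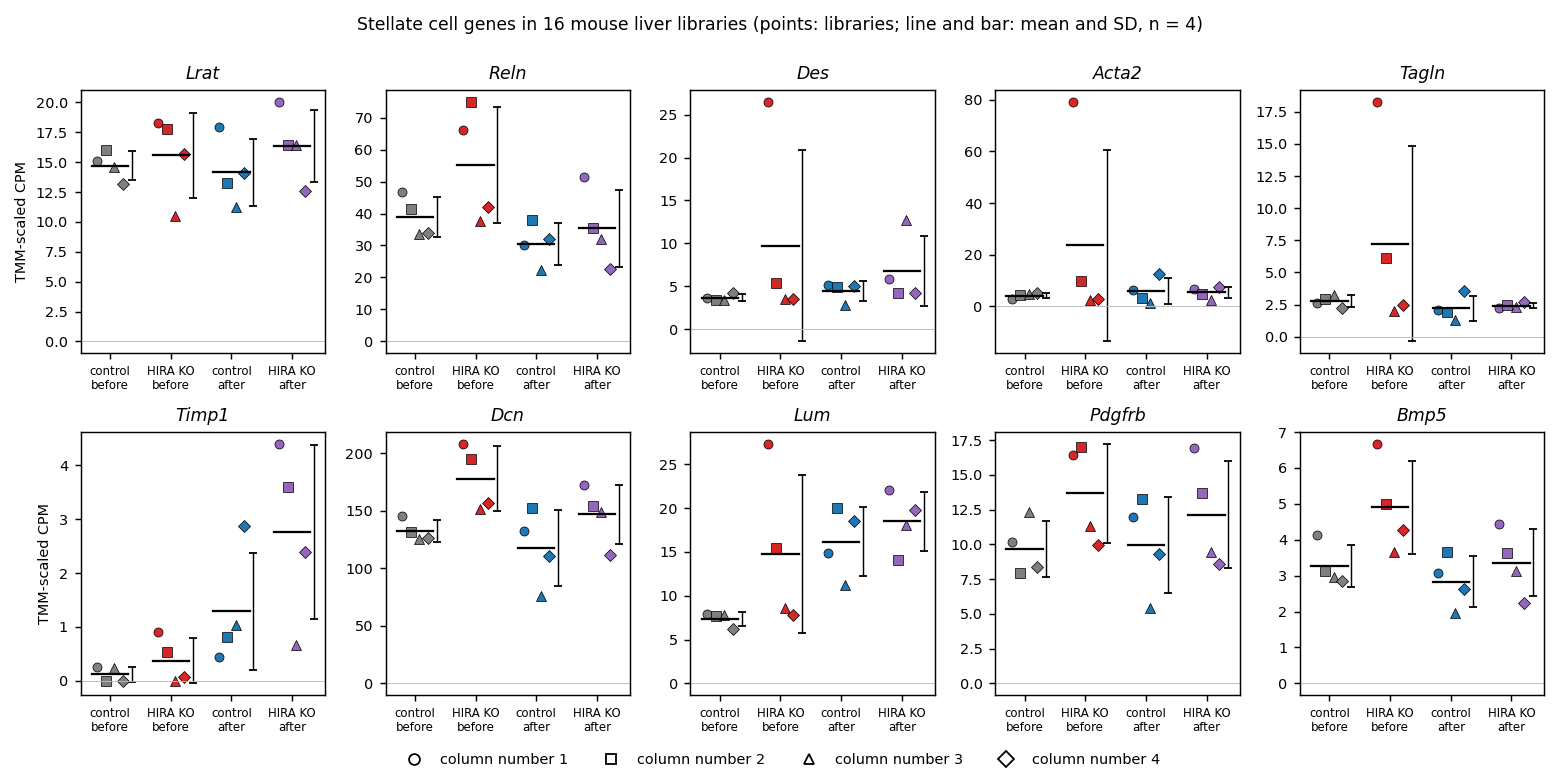
TMM-scaled CPM (vertical axis, linear, a separate range for each gene) of the 10 genes in the 4 groups. Each point is a library, its shape gives the running number, the line is the mean and the bar the SD (n = 4). In Acta2, Des and Tagln the spread of HIRA KO before regeneration comes from library 1, at 79.1, 26.5 and 18.3 CPM.

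Of the 10, 3 are genes of the quiescent state. Lrat, which esterifies retinol for storage and is a defining gene of stellate cells, was nearly flat: its 16 values ran from 10.5 to 20.0 CPM, and its group means from 14.1 ± 2.83 to 16.4 ± 3.02. Reln, a secreted glycoprotein that stellate cells make in the liver, ran from 22.2 to 74.8 CPM. Des, the intermediate filament desmin, ran from 2.78 to 26.5 CPM. Its highest values were those of HIRA KO library 1 before regeneration and, at 12.8 CPM, HIRA KO library 3 after it. No pair of groups that were neighbours in the order of means was free of overlap for any of the 10 genes, in 30 pairs examined. No share over all genes is given for this measure, so it only describes the 10 genes. The highest group mean was that of HIRA KO before regeneration for 7 genes, and of HIRA KO after it for Lum, Timp1 and Lrat.

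Acta2, smooth muscle actin, is the classic mark of an activated stellate cell. Serum response factor, a transcription factor of contractile genes, binds a motif known as the CArG box, and the start of Acta2 is shown here for the matches it holds. No window of 300 bases around the RefSeq starts of 6 of the 10 genes (Acta2, Bmp5, Timp1, Des, Lrat and Reln, GRCm38.p6) held a full CArG box on either strand, against 1.63% of all 32851 windows. With 1 G or C allowed among the A or T letters, 9.98% of all windows held a match, among them that of Acta2 with 2 matches and that of Lrat with 1. The capitals below mark these matches, which overlap no other match, each on the minus strand and written along the transcript:
Acta2, chr19:34255438-34255467: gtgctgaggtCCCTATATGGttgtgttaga
Acta2, chr19:34255388-34255417: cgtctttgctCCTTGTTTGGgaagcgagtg
Lrat, chr3:82904178-82904207: cttctcaccgCCAAGAAAGGtgctccattc
Both stretches of Acta2 lie in an exon that GENCODE M21 annotates at its 5′ end, and that of Lrat lies outside its exons. A match of letters is a description, and whether serum response factor binds these stretches was not tested.

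Before regeneration, HIRA KO against control asked what deletion in hepatocytes did to these genes in resting liver. All 10 genes had a fitted change above 0, with a median log2 fold change of 0.80 against 0.01 over all genes tested. None was called by edgeR's quasi-likelihood test at an adjusted p under 0.05, and none by DESeq2, which gave no adjusted p for Des. Across all genes edgeR called 0.0391%, and DESeq2 called 382 of 23018. An unadjusted p under 0.05 was reached by 6 of the 10 (Dcn, Lum, Bmp5, Acta2, Tagln and Des), against 13.2% of all genes. Without the HIRA KO libraries that stood apart 5 of the 10 were above 0 and 5 below it (Acta2, Tagln, Des, Timp1 and Lrat), with a median of -0.0064 against -0.033 over all genes, and none had an unadjusted p under 0.05. The genes are correlated across libraries, so these counts are not independent of each other.

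Acta2 was at 2.74, 4.25, 4.64 and 5.03 CPM in control, and at 79.1, 9.74, 2.45 and 3.01 in HIRA KO libraries 1 to 4. Libraries 1 and 2 were above every control and libraries 3 and 4 lay low in or under the control range. The log2 fold change was 2.51 ± 1.01 (SE), with an edgeR adjusted p of 0.327. Without library 1 it was 0.29, and without both HIRA KO libraries that stood apart it was -0.60.

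Tagln, the actin-binding protein transgelin, had the same shape. It was at 2.64, 2.96, 3.26 and 2.25 CPM in control and at 18.3, 6.14, 2.04 and 2.44 in HIRA KO, a log2 fold change of 1.39 ± 0.54 (edgeR adjusted p = 0.305). For Des the HIRA KO values were 26.5, 5.40, 3.54 and 3.57 CPM against 3.39 to 4.26 in control, with a log2 fold change of 1.41 ± 0.60 (edgeR adjusted p = 0.344). As in Acta2, libraries 1 and 2 were above every control. Without library 1 the log2 fold changes were 0.35 for Tagln and 0.18 for Des, and without both libraries they were -0.31 and -0.05.

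Dcn was the only 1 of the 10 whose groups did not overlap, which 8.07% of all genes share. It was at 146, 131, 125 and 126 CPM in control and at 208, 195, 151 and 157 in HIRA KO. All 4 HIRA KO libraries were higher, by a log2 fold change of 0.43 ± 0.18 (edgeR adjusted p = 0.336). An exact two-sided permutation test of log2(CPM + 1) gave p = 0.0286, the smallest that 4 against 4 allows, and 0.381 after Benjamini-Hochberg adjustment over the 40 tests of 10 genes in 4 comparisons. Without the libraries that stood apart the difference was 0.22.

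Lum, the related proteoglycan lumican, was at 7.86, 7.64, 7.78 and 6.16 CPM in control and at 27.3, 15.5, 8.63 and 7.77 in HIRA KO. Library 4 alone of the HIRA KO libraries fell within the control range. The log2 fold change was 1.01 ± 0.33 (edgeR adjusted p = 0.238; DESeq2 adjusted p = 0.060), and 0.16 without the libraries that stood apart.

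The other 5 genes differed less or were measured less well. Reln was at 46.8, 41.3, 33.6 and 34.03 CPM in control and at 66.0, 74.8, 37.6 and 42.0 in HIRA KO (log2 fold change 0.50 ± 0.26, edgeR adjusted p = 0.419). Pdgfrb, the PDGF receptor through which stellate cells are driven to divide and migrate, was at 7.91 to 12.4 CPM in control and 9.96 to 17.0 in HIRA KO (0.50 ± 0.28, edgeR adjusted p = 0.458). Bmp5, a BMP ligand, was at 2.84 to 4.13 and 3.67 to 6.67 CPM (0.59 ± 0.25, edgeR adjusted p = 0.331). In each of these genes libraries 1 and 2 were again the high ones of HIRA KO, and without them the log2 fold changes were 0.034 for Reln, 0.14 for Pdgfrb and 0.28 for Bmp5. Lrat had a log2 fold change of 0.08 ± 0.18, whose interval of 2 SE, from -0.27 to 0.44, leaves room for a change of either sign, and -0.16 without the libraries that stood apart. Timp1, the metalloproteinase inhibitor induced in activated stellate cells, had 0 to 5 reads per library in control and 17, 8, 0 and 1 in HIRA KO, too few to show a difference at this depth (log2 fold change 1.61 ± 1.16, and -1.71 ± 2.18 without the libraries that stood apart).

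**Figure D2:**
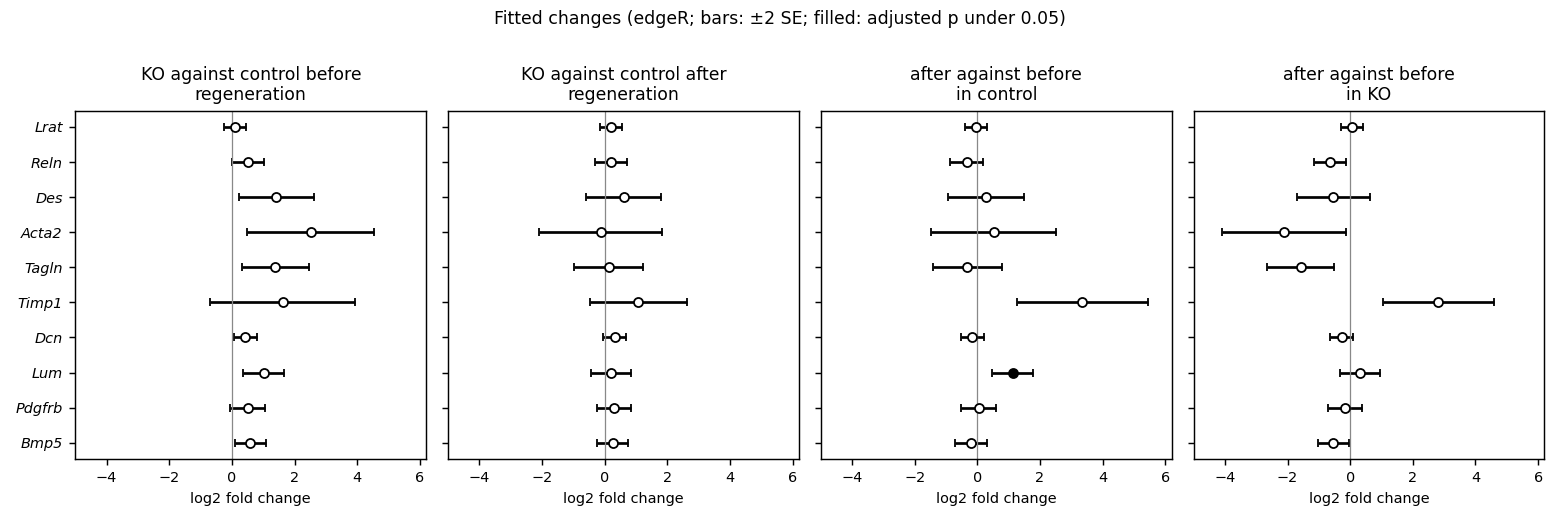
Fitted log2 fold changes (horizontal axis) of the 10 genes in 4 comparisons from edgeR, with bars of 2 SE to each side and filled points for an adjusted p under 0.05. All 10 points lie above 0 for HIRA KO against control before regeneration, and Lum in control (1.13, after against before) is the only filled one.

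The higher values before regeneration went with the running number. In all 10 genes, HIRA KO libraries 1 and 2 were above every control library, which was true of 18.3% of all genes tested. In all 10 they were also above HIRA KO libraries 3 and 4, as in 27.5% of all genes. Libraries 3 and 4 were both above every control in Dcn alone, against 8.39% of all genes. The running number is the only mark the libraries carry, and what it stands for is not known. Splitting it into 1 and 2 against 3 and 4 matches how the HIRA KO libraries stood on the second principal component of these same data. Counts by this split therefore describe libraries already seen to stand apart and are no separate support. Each group also held 2 libraries from each approach, and the labels cannot show whether approach went with this split.

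A further fit of all 16 libraries gave libraries 1 and 2 and libraries 3 and 4 of each group separate means. Scaling and the estimate of the spread thus came from all 16. Compared on libraries 1 and 2, 3 of the 10 genes passed the test for HIRA KO against control before regeneration, against 8.55% of all genes. These were Tagln (log2 fold change 2.13 ± 0.48, edgeR adjusted p = 0.016), Lum (1.47 ± 0.32, adjusted p = 0.016) and Pdgfrb (0.89 ± 0.23, adjusted p = 0.021). Compared on libraries 3 and 4 in the same fit, none of the 10 passed, against 0.0478% of all genes. The same 3 genes had values of -0.30, 0.23 and 0.04. The difference between these effects was itself tested and was called for none of the 10 (0.426% of all genes). It was largest for Acta2, at 4.50 ± 1.72 (edgeR adjusted p = 0.426), and had its smallest adjusted p for Tagln, at 2.43 ± 0.70 (0.204).

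**Figure D3:**
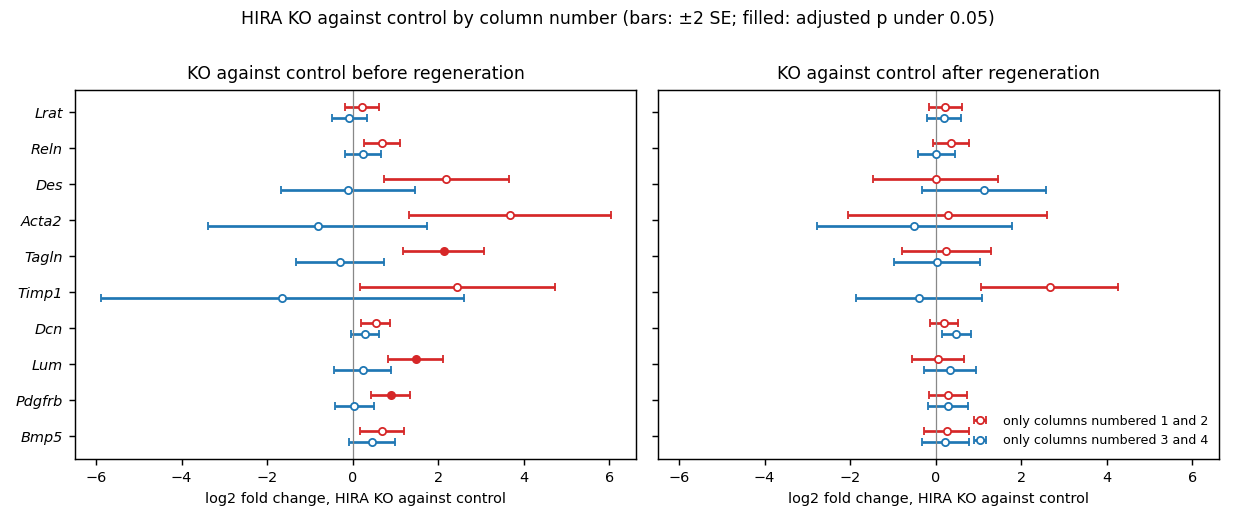
Log2 fold change of HIRA KO against control (horizontal axis, the same range in both panels) for the 10 genes, before (left) and after (right) regeneration. It is compared on libraries 1 and 2 (red) and on libraries 3 and 4 (blue) within 1 fit of all 16 libraries, with bars of 2 SE to each side. Filled points passed an adjusted p of 0.05: before regeneration Tagln, Lum and Pdgfrb on libraries 1 and 2.

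Markers of several other cell types were high in the same libraries, and those of others were not. The summed level of 9 vascular smooth muscle markers that include none of the 10 genes was 158 CPM in HIRA KO library 1 before regeneration, 32.8 in library 2 and 13.9 to 26.0 in the other 14 libraries. Smooth muscle myosin, Myh11, was at 81.3 CPM in library 1 and at no more than 7.00 in any other, and calponin, Cnn1, at 14.4 against at most 1.44. In control before regeneration 8 of the 9 markers had reads in all 4 libraries. The 12 portal fibroblast markers summed to 309 CPM in library 1 and 144 in library 2, and to 134 and 111 in libraries 3 and 4. All 4 of these were above control before regeneration, at 61.2 to 90.6, where Mfap5 was at 0 in all 4 libraries. After regeneration the same markers summed to 95.8 to 161 CPM in control and 115 to 167 in HIRA KO. The 7 mesothelial markers summed to 69.7 CPM in library 1, to 9.54 in library 2 and to at most 16.5 in any library but library 1, and the 8 cholangiocyte markers to 219 against at most 199.9. Krt19, a keratin of bile ducts and mesothelium, was at 52.7 CPM in library 1 and at most 4.40 elsewhere. It is counted in both of these sums and made up most of the mesothelial sum in library 1. Of the 7 mesothelial markers 5 were highest of the 16 libraries in library 1, and of the 8 cholangiocyte markers 3, against 9.70% of all genes. The 9 lymphocyte markers summed to 13.9 and 8.67 CPM in libraries 1 and 2 against 3.37 to 6.07 in control before regeneration, and the 10 mitotic genes to 25.0 and 18.0 against 5.03 to 12.8. The 10 endothelial markers, at 269 and 316 CPM, were not above their control range of 298 to 368, and the 9 Kupffer cell markers, at 245 and 228, lay within theirs of 172 to 458. The 11 hepatocyte markers summed to 169067 and 152155 CPM in libraries 1 and 2, and to 129890 and 146066 in libraries 3 and 4. All 4 sums were above their control range of 117251 to 128231. Of these 11, only 4 had a fitted change above 0 for HIRA KO against control before regeneration, with a median log2 fold change of -0.17. The part that these other cell types had in the levels of the 10 genes was not tested.

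**Figure D4:**
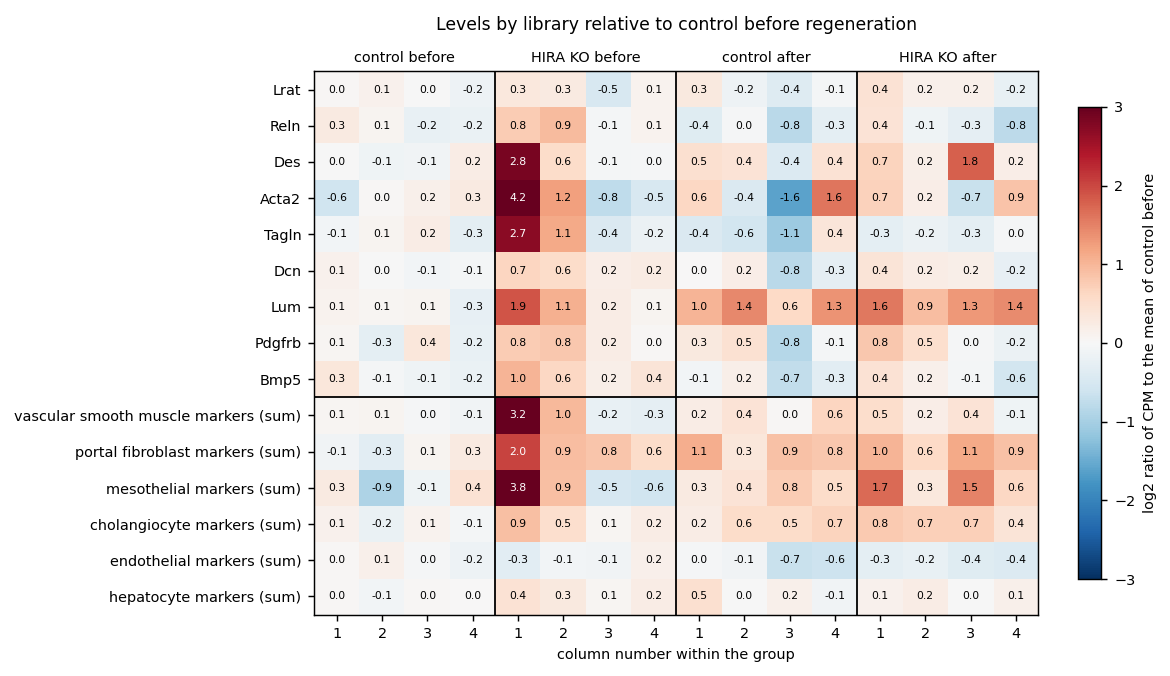
Log2 ratio of the CPM in each library (columns, by group and running number) to the mean of control before regeneration, for 9 of the 10 genes and for the summed CPM of 6 marker lists. The colour scale ends at 3 in either direction, the numbers give the ratio, and Timp1 is left out since it had 0 reads in some libraries. HIRA KO library 1 before regeneration is high for Acta2, Des, Tagln and Lum and for the smooth muscle, mesothelial and portal fibroblast lists. Krt19 is in both the mesothelial and the cholangiocyte list and makes up most of the mesothelial sum in that library.

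Other lists of related genes also had changes mostly above 0 before regeneration, and fewer without the libraries that stood apart. Of 20 further stellate cell genes, 18 had a change above 0 before regeneration, 6 with an unadjusted p under 0.05 and none called, with a median log2 fold change of 0.34. Leaving out the libraries that stood apart left 15 above 0, with a median of 0.10. Cygb, a globin of stellate cells, was at 17.8 and 15.8 CPM in libraries 1 and 2 and at 7.07 and 7.64 in libraries 3 and 4, against 8.16 ± 1.20 in control. The 7 measured proteoglycans of the decorin and lumican family besides those all had a change above 0 (median 0.75, none called), and all 7 were highest of the 16 libraries in HIRA KO library 1, as were 9.70% of all genes. Of the 7, 5 were above 0 without the libraries that stood apart, with a median of 0.09. Of 16 contractile genes 14 had a change above 0 (median 0.75, none called), and 5 without the libraries that stood apart (median -0.18).

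After regeneration, HIRA KO against control asked whether a difference remained once the tissue had regrown. Among the 10 genes the median log2 fold change was 0.23, against 0.02 over all genes, 9 of them above 0. None was called by edgeR or DESeq2, against 0.491% of all genes by edgeR and 910 of 23018 by DESeq2. None had an unadjusted p under 0.05, against 15.8% of all genes. None of the 10 had groups that did not overlap, against 8.10% of all genes. Without the libraries that stood apart 6 of the 10 were above 0, with a median of 0.12, and Des alone had an unadjusted p under 0.05 (log2 fold change 0.97 ± 0.34, edgeR adjusted p = 0.295). Acta2 was at 6.45, 3.10, 1.36 and 12.7 CPM in control and at 6.75, 4.80, 2.61 and 7.57 in HIRA KO, with a log2 fold change of -0.13 ± 0.98. The HIRA KO values lay within the wider range of control. Dcn was at 75.5 to 152 CPM in control and 112 to 173 in HIRA KO (0.32 ± 0.18, edgeR adjusted p = 0.412). Des was highest in HIRA KO library 3, at 12.8 CPM, with the other 7 libraries after regeneration at 2.78 to 5.85.

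Timp1 was the gene most divided by the running number after regeneration. It was at 4.40 and 3.60 CPM in HIRA KO libraries 1 and 2, at 0.664 and 2.39 in libraries 3 and 4, and at 0.438, 0.802, 1.04 and 2.88 in control. The log2 fold change was 1.08 ± 0.78 over all libraries (edgeR adjusted p = 0.547), 2.66 ± 0.80 on libraries 1 and 2 (adjusted p = 0.052) and -0.39 ± 0.74 on libraries 3 and 4 (adjusted p = 0.933). In these comparisons by the running number none of the 10 genes was called, against 12.4% of all genes on libraries 1 and 2 and 0.200% on libraries 3 and 4. The difference between these effects of Timp1 was 3.05 ± 1.09 (adjusted p = 0.208), and none of the 10 passed that test, against 2.93% of all genes.

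In control liver, the comparison of after with before regeneration asked how the genes stood in regrown tissue. Lum was the only 1 of the 10 called, against 10.2% of all genes, and rose from 7.36 ± 0.81 to 16.2 ± 3.96 CPM. Its values after regeneration were 14.9, 20.0, 11.2 and 18.6 CPM, all above the highest value before, 7.86. The log2 fold change was 1.13 ± 0.33 (edgeR adjusted p = 0.039). Leaving out 1 library left it between 1.02 and 1.28, but the adjusted p stayed under 0.05 only without control library 3 after regeneration (0.037) and was 0.054 to 0.108 without any of the other 7. With the running number within genotype fitted as a block, chosen after seeing the data, Timp1 was called in control and Lum was not. That fit called 3525 of all genes.

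Timp1 also had groups that did not overlap in control, with 5, 0, 4 and 0 reads before and 7, 14, 19 and 60 after. In CPM this was 0.119 ± 0.14 and 1.29 ± 1.09. The fitted log2 fold change of 3.35 ± 1.04 rests on those few reads and had an edgeR adjusted p of 0.055 and a DESeq2 adjusted p of 0.0054. Non-overlapping groups were seen in 2 of the 10 genes, against 19.0% of all genes, and an unadjusted p under 0.05 in the same 2, against 23.5%. The exact permutation test gave p = 0.0286 for each (0.381 adjusted over 40 tests). The remaining 8 genes had log2 fold changes from -0.35 (Reln, ± 0.26) to 0.52 (Acta2, ± 1.00). Acta2 in control after regeneration ran from 1.36 in library 3 to 12.7 in library 4, so a change smaller than that spread was not detectable. Genes that were called across the whole table in this comparison included markers of proliferation, with all 10 mitotic genes higher (median log2 fold change 4.86), and all 9 Kupffer cell markers (median 1.12). The 10 stellate cell genes had a median of -0.01.

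In HIRA KO liver, none of the 10 passed the edgeR test for after against before, against 12.0% of all genes, and 4 (Bmp5, Tagln, Timp1 and Reln) had an unadjusted p under 0.05, against 27.4%. DESeq2 called 2, Tagln and Timp1, and 3630 of all 23018 genes. With the running number within genotype fitted as a block, edgeR called Reln and Timp1, and 4097 of all genes. No gene of the 10 had groups without overlap, against 16.1% of all genes. Timp1 was at 17, 8, 0 and 1 reads before and 97, 81, 14 and 43 after, a log2 fold change of 2.81 ± 0.89 (edgeR adjusted p = 0.053). Every library after regeneration but library 3 was above all those before. Lum was at 14.1 to 22.02 CPM after regeneration, a narrower range than its 7.77 to 27.3 before, with a log2 fold change of 0.31 ± 0.32 (adjusted p = 0.578). Without the libraries that stood apart the change of Lum was 1.22 ± 0.23 (adjusted p = 0.0043), and without library 1 before regeneration alone it was 0.81 (adjusted p = 0.034). Of the 10 genes, Lum alone was called without the libraries that stood apart, against 2225 of all 23018 genes, and 6 had values above 0.

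The contractile genes of the 10 stood lower after regeneration in HIRA KO. Tagln was at 2.27 to 2.73 CPM after it (log2 fold change -1.58 ± 0.54, edgeR adjusted p = 0.070), and Acta2 at 2.61 to 7.57 (-2.13 ± 0.99, adjusted p = 0.186). Both directions turned without the libraries that stood apart, to 0.17 and 0.90. Reln was at 51.4, 35.6, 32.1 and 22.5 CPM after regeneration, against 37.6 to 74.8 before it, with a log2 fold change of -0.64 ± 0.26 (adjusted p = 0.122). Split by the running number, Tagln was the only 1 of the 10 called on libraries 1 and 2 (-2.38 ± 0.48, adjusted p = 0.010; 8.75% of all genes), and Lum and Timp1 were called on libraries 3 and 4 (12.9% of all genes), where Timp1 before regeneration rested on 0 and 1 reads.

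The change of the HIRA KO effect with regeneration was tested as an interaction. None of the 10 was called by edgeR or DESeq2, against 0% of all genes by edgeR and 67 of 23018 by DESeq2. None had an unadjusted p under 0.05, against 6.81% of all genes. The fitted values were below 0 for 9 of the 10, with a median of -0.44 against -0.02 over all genes. Without the libraries that stood apart 6 of the 10 were above 0 (Lum, Acta2, Tagln, Des, Timp1 and Lrat), with a median of 0.16 against 0.03 over all genes, and none had an unadjusted p under 0.05. The furthest from 0 was Acta2, at -2.64 ± 1.40 (edgeR adjusted p = 0.756), which was 0.38 without the libraries that stood apart. The difference that HIRA KO made to these genes was therefore not shown to differ between the times.

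In 9 lists of related genes, with 117 entries for 116 genes, none was called for HIRA KO against control before regeneration (0.0391% of all genes), and 1 higher and 1 lower after it (0.491%). From before to after, 5 entries rose and 10 fell in control, where 10.2% of all genes were called, and 2 rose and 17 fell in HIRA KO, where 12.0% were. The counts given below for single lists stand beside those shares over all genes. In the PDGF system, which drives stellate cell growth, none of 6 further genes was called for HIRA KO against control at either time, and Pdgfd, a ligand of Pdgfrb, fell in HIRA KO after regeneration (log2 fold change -0.94 ± 0.25, edgeR adjusted p = 0.020). Of 17 BMP genes, Bmp7 alone was higher in HIRA KO after regeneration (2.08 ± 0.27, adjusted p = 0.0045). Bmp2, Bmp6 and the receptor Bmpr2 fell from before to after in both genotypes, Bmp2 by 0.97 in control and 0.92 in HIRA KO on the log2 scale, and Bmper, which binds BMPs, rose in HIRA KO (2.83 ± 0.76, adjusted p = 0.027). Of 18 TGF beta genes, the matricellular target Ccn2 fell from 17.3 ± 6.68 to 2.35 ± 0.81 CPM in control (log2 fold change -2.87 ± 0.44, adjusted p = 0.0015) and from 27.4 ± 12.2 to 4.70 ± 2.33 in HIRA KO (-2.53 ± 0.42, adjusted p = 0.0022). Smad7, an inhibitor of the pathway, fell by 0.61 and 0.56, and Tgfb1 rose by 0.73 in HIRA KO.

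Inhibitors and enzymes of matrix turnover moved in different directions across regeneration. Timp3 fell in both genotypes (-1.09 ± 0.24 in control, edgeR adjusted p = 0.0084; -1.16 ± 0.24 in HIRA KO, adjusted p = 0.0054), as did the membrane inhibitor Reck (-1.29 and -1.10). The gelatinase Mmp2 rose in control (1.29 ± 0.38, adjusted p = 0.043). In all, 2 of 16 measured genes of this list rose and 2 fell in control, and 2 fell in HIRA KO. Of the 14 retinoid genes, Rbp4, which carries retinol in plasma, fell in both genotypes (-0.76 and -0.72), and the retinol dehydrogenase Rdh11 in HIRA KO (-1.23 ± 0.21, adjusted p = 0.0017). Of the 20 further stellate cell genes, Ecm1, an inhibitor of latent TGF beta activation, fell in both (-0.90 and -0.81), and Steap4 rose in control (1.26 ± 0.30, adjusted p = 0.013). Ogn, a proteoglycan of the decorin family, fell in HIRA KO (-1.81 ± 0.41, adjusted p = 0.0088), as did Prelp (-0.52 ± 0.17, adjusted p = 0.048). No receptor or adaptor of reelin was called in any of these comparisons, in 3 genes measured.

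Of 16 contractile genes, 2 rose and 1 fell in control across regeneration, against 10.2% of all genes called, and 4 fell in HIRA KO, against 12.0%. Tpm1, a tropomyosin, rose in control (1.30 ± 0.25, edgeR adjusted p = 0.0037), as did Mrtfa, the cofactor of serum response factor (0.60 ± 0.18, adjusted p = 0.036). Vcl, vinculin, fell in HIRA KO (-0.83 ± 0.13, adjusted p = 9.4e-04) and was lower in HIRA KO than in control after regeneration (-0.62 ± 0.13, adjusted p = 0.047). Mylk, the kinase of myosin light chain, fell in both genotypes (-0.56 and -0.75), and Lmod1 and Srf fell in HIRA KO (-2.78 and -0.44). Lmod1 before regeneration was at 9.79 CPM in HIRA KO library 1 and at most 1.20 in any other library. Without the libraries that stood apart, Bmp7 was still called for HIRA KO against control after regeneration (1.66 ± 0.25, edgeR adjusted p = 0.019) and Vcl was not (-0.52 ± 0.17, adjusted p = 0.245). For after against before in HIRA KO, Pdgfd, Bmper, Bmpr2, Smad7, Ogn, Prelp, Lmod1 and Srf were then no longer called, with adjusted p from 0.121 (Smad7) to 0.547 (Srf) and directions as before.

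The 10 genes fell into patterns that differed by what they followed across the 16 libraries. Correlations of log2(CPM + 1) are given as a description, since the libraries share groups and the 2 sets that stood apart. Dcn, Bmp5 and Reln were alike (Pearson r of 0.93 between Dcn and Bmp5, 0.87 between Dcn and Reln, 0.93 between Bmp5 and Reln), and remained so without HIRA KO library 1 before regeneration (0.93, 0.84 and 0.92 over 15 libraries). Acta2 and Tagln were at 0.91, and at 0.69 without that library. Des was at 0.73 with Acta2 and 0.74 with Tagln, and at 0.19 and 0.13 without it. Timp1 was nearest to Lum among the 10, at 0.70.

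The most similar of 13166 other genes with a mean of at least 1 CPM gave the same picture. For Acta2 these were Actg2 (r = 0.95), Myh11 (0.90) and Cnn1 (0.89), which are genes of smooth muscle, and without HIRA KO library 1 before regeneration the values were 0.84, 0.62 and 0.61. For Tagln they were Myh11 (0.94), Myl9 (0.94) and Igsf9 (0.93), and for Des they were Slc52a3 (0.92), Speg (0.91) and Synpo2 (0.90). Without that library the values were 0.75, 0.73 and 0.695 for Tagln and 0.75, 0.78 and 0.67 for Des. For Lum they were Col5a2 (0.95), Mmp2 (0.95) and Col3a1 (0.94), each of which stayed at 0.93 or above without that library. Dcn was nearest to Angptl2 (0.94), Col14a1 (0.92) and Pde3a (0.91), Pdgfrb to Bgn (0.93), Matn2 (0.91) and Glis2 (0.88), and Bmp5 to Sparcl1 (0.94), Sema6c (0.94) and Timp2 (0.92). Reln was nearest to Arhgef17 (0.92), Rbms3 (0.91) and Pde3a (0.90). Lrat was nearest to Qtrt1 (0.89) and Trim62 (0.87), and Timp1 to Slc16a3 (0.92), A2ml1 (0.91) and Coq8b (0.91). Dcn and Reln shared Pde3a among these, and Acta2 and Tagln shared Myh11.

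By GENCODE M21 on GRCm38, all 10 genes are protein coding. Dcn (chr10:97479609-97518143, plus strand) and Lum (chr10:97565128-97572703, plus strand) are neighbours on chromosome 10. Together with Pdgfrb and Acta2 (chr19:34241090-34255590, minus strand), they overlap no other annotated gene. Timp1 (chrX:20870166-20874735, plus strand) lies within Syn1 on the opposite strand, and Tagln (chr9:45929619-45936058, minus strand) overlaps Pcsk7. Des (chr1:75360329-75368579), Lrat (chr3:82892579-82903973), Reln (chr5:21884454-22344702) and Bmp5 (chr9:75775364-75900310) overlap other gene models, at least 1 of them on the opposite strand in each case. The kit kept strand but the setting used for counting is not stated, so reads of such overlapping pairs may have been left out or shared, and the values of these 6 genes are less certain for it.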

How the data were processed

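Per the methods of the study, reads of 16 poly-A libraries were trimmed where needed, aligned to mm10 with STAR and counted with HOMER. The submitters' processing notes name STAR, HTSeq and Cufflinks, so which tool made the deposited counts is not settled. The authors deposited whole-number gene counts, and FPKM per the file headers, whose tool is not given in the sources used here; empty FPKM cells were read as 0. Genes with at least 10 counts in total (23018) were scaled by TMM and fitted as 4 group means with the robust quasi-likelihood test of edgeR (version 4.0.16, R version 4.3.3), with Benjamini-Hochberg adjustment over all genes. Calls were made where the adjusted p was under 0.05. DESeq2 (1.42.0), limma (3.58.1) on log2(FPKM + 1) and log2(FPKM + 0.1), other scalings, filters, library subsets and blocks were alternatives. Single values were tested with exact two-sided permutation tests (scipy). The scripts were tested on simulated data.

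The members and gene lists were chosen with earlier results of these data known, and the lists were written from general knowledge. Named besides the 10 members are, per list and comparison, up to 4 called genes of at least 1 CPM on average, taken by the size of the log2 fold change, the 3 non-member genes most correlated with each member, and marker genes named after their values were seen (Myh11, Cnn1, Krt19, Cygb, Mfap5). Values of a few genes that these rules would name are not reported here. Counts between replicates differed by 12.4 to 134.5 times their degrees of freedom in chi-square tests of 24 pairs, so no library was counted more than once. Promoter windows came from RefSeq (GRCm38.p6).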

Additional observations from a re-analysis of the deposited data

Results flagged for a closer look

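Of 40 combinations of gene and group, 4 held a library whose gap to the nearest of the others exceeded Dixon's critical value, as a share of the range of the group. Chance alone gives about 1 in 20. In HIRA KO before regeneration, Acta2 was at 79.1 CPM in library 1 with the next at 9.74 (gap 0.905 of the range), and Des was at 26.5 CPM in the same library with the next at 5.40 (0.919). That library also held the highest smooth muscle and mesothelial marker sums, the second made up mostly of Krt19. The part of those cells in the result was not tested. The other 2 were low values: Lum in control before regeneration was at 6.16 CPM in library 4 with the next at 7.64 (0.871), and Des in control after regeneration was at 2.78 CPM in library 3 with the next at 4.87 (0.888).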

How the results depend on the processing

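The number of the 10 genes called was 0 for HIRA KO against control after regeneration and for the interaction in every alternative run. Over all genes these runs called 0 to 2851 after regeneration and 0 to 70 for the interaction. Before regeneration the number was 0 in all but the comparison on columns 1 and 2 (3 of the 10, with 1969 of all genes). For after against before in control the count of 1 became 2 with DESeq2, with edgeR's own filter, with only the groups compared and on columns 3 and 4. It became 0 with no filter on low counts, on columns 1 and 2 and with limma on FPKM at either pseudocount. Over all genes the main fit called 2350, the fits with 2 called 2733 to 3275, and the fits with 0 called 1206 to 2064. In HIRA KO the count of 0 became 2 with DESeq2 and on columns 3 and 4. It became 1 with edgeR's own filter, without the libraries that stood apart, on columns 1 and 2 and with limma on log2(FPKM + 1). Over all genes the main fit called 2764, the fits with 2 called 3630 and 2980, and the fits with 1 called 1911 to 3115. Leaving out 1 library gave 0 to 1 calls in control and 0 to 2 in HIRA KO: Lum and Timp1 without HIRA KO library 1 before regeneration, Tagln without library 3 or 4 before, Reln without library 1 after and Timp1 without library 3 after. Over all genes the fits without 1 library called 1530 to 2357 in control and 1678 to 2771 in HIRA KO. The causes of these changes were not tested.

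Libraries of the same number deviated together with r of 0.08 to 0.38 in control and 0.39 to 0.59 in HIRA KO, and 15 of 16 correlated best with their own number. No label explains the number and not every pair exceeded 0.1, so the main fits did not take it as a pairing. The study's methods describe lobes removed as baseline and tissue regrown in the mice that recovered, so both may come from the same mice. The main tests of after against before and of the interaction may therefore ignore a real pairing. With the column number as a replicate block the count in HIRA KO was 1 (Reln, log2 fold change -0.62, edgeR adjusted p = 0.021). With a block for each number within genotype, chosen after seeing the data, it was 2 (Reln and Timp1), and the count in control stayed at 1, with Timp1 in place of Lum. Over all genes the block by number called 3401 in HIRA KO. The block within genotype called 4097 in HIRA KO and 3525 in control. The block by number turned Acta2 after regeneration to 0.0039 and Pdgfrb across regeneration in control to -0.016.

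Outside leaving out 1 library, 46 fitted values changed sign, 17 of them on columns 3 and 4 and 16 without the HIRA KO libraries that stood apart. Without those libraries HIRA KO against control before regeneration was -0.60 for Acta2, -0.31 for Tagln, -0.046 for Des, -1.71 for Timp1 (1 read in 2 libraries) and -0.16 for Lrat, and after regeneration -0.12 for Pdgfrb, -0.052 for Bmp5 and -0.14 for Reln. After against before in HIRA KO became 0.90 for Acta2, 0.17 for Tagln and 1.28 for Des, and the interaction 0.087 for Lum, 0.38 for Acta2, 0.49 for Tagln, 1.01 for Des and 1.92 for Timp1. On columns 3 and 4 the same comparisons gave -0.82, -0.30, -0.11, -1.64 and -0.077 before regeneration, -0.39 for Timp1 after it, 0.88, 0.15 and 1.26 across it in HIRA KO, -0.49 for Pdgfrb across it in control, and interactions of 0.20 (Dcn), 0.11 (Lum), 0.25 (Pdgfrb), 0.32 (Acta2), 0.32 (Tagln), 1.24 (Des) and 1.26 (Timp1). On columns 1 and 2 the signs that turned were Acta2 after regeneration (0.28), Dcn (0.040) and Lrat (0.0019) across it in control, Lum across it in HIRA KO (-0.25) and the interaction of Timp1 (0.22). With limma on FPKM they were Acta2 after regeneration (0.019 and 0.10 at pseudocounts of 1 and 0.1), Lrat across it in control (0.050 and 0.066) and the interaction of Timp1 (0.46 and 0.31).

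Leaving out 1 library turned the sign of 13 values, none of them called. After regeneration Acta2 ran from -0.46 to 0.63 and Tagln from -0.046 to 0.51. Across regeneration in control Dcn ran from -0.31 to 0.0019, Pdgfrb from -0.12 to 0.25, Acta2 from -0.23 to 0.86 and Lrat from -0.18 to 0.044, and in HIRA KO Acta2 from -2.49 to 0.10, Des from -1.03 to 0.71 and Lrat from -0.056 to 0.20. The interaction of Dcn ran from -0.26 to 0.051, of Des from -1.29 to 0.44, of Timp1 from -1.18 to 0.42 and of Lrat from -0.00076 to 0.27. Counts of 0 to 17 reads limit Timp1 before regeneration, and 4 libraries a group limit every comparison.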
